A study of Mus musculus with 29 samples.

Results

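The genes that set the balance between fusion and fission of mitochondria were followed across 8 groups of mouse skeletal muscle. The set holds 10 of the 48023 genes in the table: the fusion GTPases Mfn1, Mfn2 and Opa1, the Opa1-cleaving proteases Oma1 and Yme1l1, the fission GTPase Dnm1l, its outer-membrane receptors Fis1, Mff and Mief1, and the inner-membrane fission factor Mtfp1. They were chosen by name and known role, each matched to 1 Ensembl gene, and all 10 passed the filter on low counts in every comparison. Between 81 reads (Mtfp1) and 8075 reads (Mfn2) were assigned to a member in a single library.

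Mitochondria fuse and divide continuously, and in muscle fibres the balance shapes an organelle network packed between the myofibrils. Mitofusins join outer membranes and Opa1 joins inner membranes, while proteases that cut Opa1 act on that step. Division needs Dnm1l, also called Drp1, which is drawn from the cytosol to receptors on the outer membrane and wraps around the organelle.

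RNA was sequenced from tibialis anterior muscle of male mice aged 2 to 3 months, described by the study as on a C57BL/6J background. The mice were either fed or deprived of food for a day. M-p110αKO and M-p110βKO mice lack a catalytic subunit of phosphatidylinositol 3-kinase (PI3K) in muscle, through floxed p110α or p110β alleles and Cre under the human skeletal actin (HSA) promoter. That promoter acts in muscle fibres, so other cells of the tissue keep the gene, and the genotype labels of the controls are p110alpha.WT and p110beta.WT, from the same 2 lines. The p110α line gave 4 fed controls, 4 fed knockouts, 4 fasted controls and 3 fasted knockouts, and the p110β line gave 3 fed controls, 4 fed knockouts, 3 fasted controls and 4 fasted knockouts. The study's supplement describes the p110β line as less purely C57BL/6, so line, genetic background and floxed allele cannot be told apart wherever the 2 lines are set side by side. The study's own account of the p110α line gives fewer controls than knockouts, whereas the labels have more controls than knockouts among fasted mice. The labels were followed, and the direction of every fasted p110α knockout value rests on them. Replicates are the library numbers in the labels, 1 to 29.

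Assigned reads ran from 5351935 to 11653239 per library (median 7828636), and mitochondrially encoded genes took 6.99% to 12.3% of them. The 8 muscle fibre markers summed to 94800 to 135000 CPM (read counts scaled to the library's total and its TMM factor), and none of them was at 0 throughout a group. Pik3ca, which encodes p110α, was at 127 ± 19.7 CPM in fed controls and 136 ± 23.4 CPM in fed M-p110αKO (SD, n = 4 each). Fasted, it was at 179 ± 8.46 and 167 ± 15.7 CPM. Pik3cb, which encodes p110β, was at 10.3 ± 0.364 CPM in fed p110β controls and 10.2 ± 0.996 CPM in fed M-p110βKO. Fasted, it was at 9.35 ± 0.793 and 9.64 ± 0.358 CPM. Reads summed over a whole gene do not check the deletion of a single exon. The study itself reports strongly reduced, not absent, mRNA of the targeted gene in each knockout. The whole-gene counts here show no such fall, so they do not check the genotype labels. Replicates 23 and 24, both fasted p110β controls, stood apart. Their 5 adipocyte markers summed to 93.4 CPM in each, against at most 15.6 CPM in the other libraries. Member calls that rest on these libraries are given with and without them, while markers and other single genes are given with them only. In whole muscle, fewer cells of a type and less RNA per cell cannot be told apart.

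The promoters of the 4 members that moved most with fasting, and of Opa1, are shown to place the genes and a motif search. They are read 5′ to 3′ on the gene's strand from the RefSeq promoter table (GRCm38.p6), end where the GENCODE M21 gene begins, and carry capitals where a searched motif matched. Mtfp1 lies on chromosome 11 (minus strand, 4091480 to 4095445), and the stretch is chr11:4095446-4095681. Fis1 lies on chromosome 5 (plus strand, 136953275 to 136966234), and its stretch is chr5:136953025-136953274. Oma1 lies on chromosome 4 (plus strand, 103313812 to 103371868) with the stretch chr4:103313596-103313811. Yme1l1 lies on chromosome 2 (plus strand, 23156369 to 23199260) with the stretch chr2:23156255-23156368. Opa1 lies on chromosome 16 (plus strand, 29579334 to 29654884) with the stretch chr16:29579084-29579333.
Mtfp1: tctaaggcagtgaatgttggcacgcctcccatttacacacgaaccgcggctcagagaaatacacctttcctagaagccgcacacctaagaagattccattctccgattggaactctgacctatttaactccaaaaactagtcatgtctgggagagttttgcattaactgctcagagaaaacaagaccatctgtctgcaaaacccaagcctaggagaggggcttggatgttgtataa
Fis1: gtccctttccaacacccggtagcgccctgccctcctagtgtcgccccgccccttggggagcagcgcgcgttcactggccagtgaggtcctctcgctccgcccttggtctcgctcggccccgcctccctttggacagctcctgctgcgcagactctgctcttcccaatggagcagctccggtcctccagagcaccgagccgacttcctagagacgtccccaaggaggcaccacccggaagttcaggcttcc
Oma1: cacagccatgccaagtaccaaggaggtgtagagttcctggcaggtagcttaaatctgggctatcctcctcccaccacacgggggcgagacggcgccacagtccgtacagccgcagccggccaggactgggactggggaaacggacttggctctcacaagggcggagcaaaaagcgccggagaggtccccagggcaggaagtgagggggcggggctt
Yme1l1: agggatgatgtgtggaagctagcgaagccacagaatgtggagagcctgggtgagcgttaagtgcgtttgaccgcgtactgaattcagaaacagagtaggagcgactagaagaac
Opa1: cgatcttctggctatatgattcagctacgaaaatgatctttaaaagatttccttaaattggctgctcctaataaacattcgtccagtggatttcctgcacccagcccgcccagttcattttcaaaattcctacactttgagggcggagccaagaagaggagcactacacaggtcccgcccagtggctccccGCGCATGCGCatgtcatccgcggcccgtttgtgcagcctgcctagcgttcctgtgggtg

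Both strands of the 250 bases before the start were searched in 15 RefSeq promoters of the 10 members. The FoxO motif GTAAACA (in 3.17% of all 32851 promoters), the ERR half-site AAGGTCA (4.08%), the E-box CACGTG (6.02%), the cAMP response element TGACGTCA (1.55%) and the YY1 motif AAGATGGCG (0.606%) matched none of the 15. The NRF1 motif, the palindrome in capitals in the Opa1 sequence and held by 0.782% of all promoters, matched once, in Opa1, from 59 to 50 bases before the start. A match or its absence describes these letters in this window only. The member promoters had 45.6% to 70.8% GC (median of all promoters 52.4%) and 5 to 27 CpG dinucleotides (median 6).

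Per kilobase of exon, Mfn2 was the most abundant member, at 106.1 ± 13.8 CPM per kilobase (SD, n = 29). Mfn1 followed at 36.5 ± 4.09 and Fis1 at 34.5 ± 8.99 CPM per kilobase. Mfn2 was above Mfn1 in 29 of 29 libraries, whereas Mfn1 was above Fis1 in 16 of 29, and their order changed with the group. In fed p110β controls Fis1 was at 44.7 ± 1.05 and Mfn1 at 36.7 ± 2.57 CPM per kilobase. In fasted p110α controls Fis1 was at 21.6 ± 0.914 and Mfn1 at 35.2 ± 2.28 CPM per kilobase. Opa1 (26.8 ± 5.31) and Dnm1l (25.7 ± 4.3) lay next, with Opa1 the higher in 17 of 29 libraries. Oma1 (18.1 ± 3.7), Mtfp1 (14.4 ± 4.67), Yme1l1 (12.4 ± 2.86), Mff (10.1 ± 0.865) and Mief1 (4.85 ± 0.767) completed the order. Mtfp1 was above Yme1l1 in 18 of 29 libraries, while Mff was above Mief1 in 29 of 29.

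**Figure D1:**
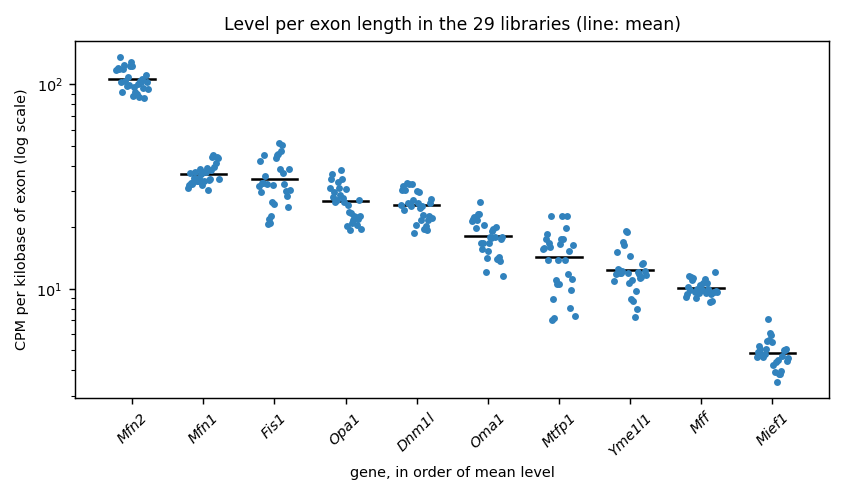
Level of each member per kilobase of exon in the 29 libraries (points, log axis) with the mean (line). Mfn2 sits at 86.0 to 136.3 CPM per kilobase, above every library of the other 9 genes, and Mief1 is lowest on average at 4.85.

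Across the 8 groups the mean level moved most for Mtfp1, by 2.22-fold, from 32.9 CPM in fed p110β controls to 14.8 CPM in fasted p110α controls. Fis1 came next with a 2.18-fold range, then Yme1l1 (1.93-fold) and Oma1 (1.71-fold). Mff, a main outer-membrane receptor for Dnm1l, was the steadiest at 1.22-fold. The genes whose 8 group means tracked Mtfp1 most closely, among 10864 genes compared by root-mean-square difference of centred log2 CPM, were Mrpl12 (0.0684), Prr29 (0.0692), Mrpl13 (0.0815), Tpi1 (0.0934) and Gnb1l (0.095). Mrpl12 and Mrpl13 encode mitochondrial ribosomal proteins and Tpi1 a glycolytic enzyme. For Fis1 they were Rpl3l (0.0519), Rbfa (0.054), Gnai2 (0.0609), Slc35b1 (0.0611) and Aes (0.062), of which Rpl3l is a muscle form of a ribosomal protein.

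**Figure D2:**
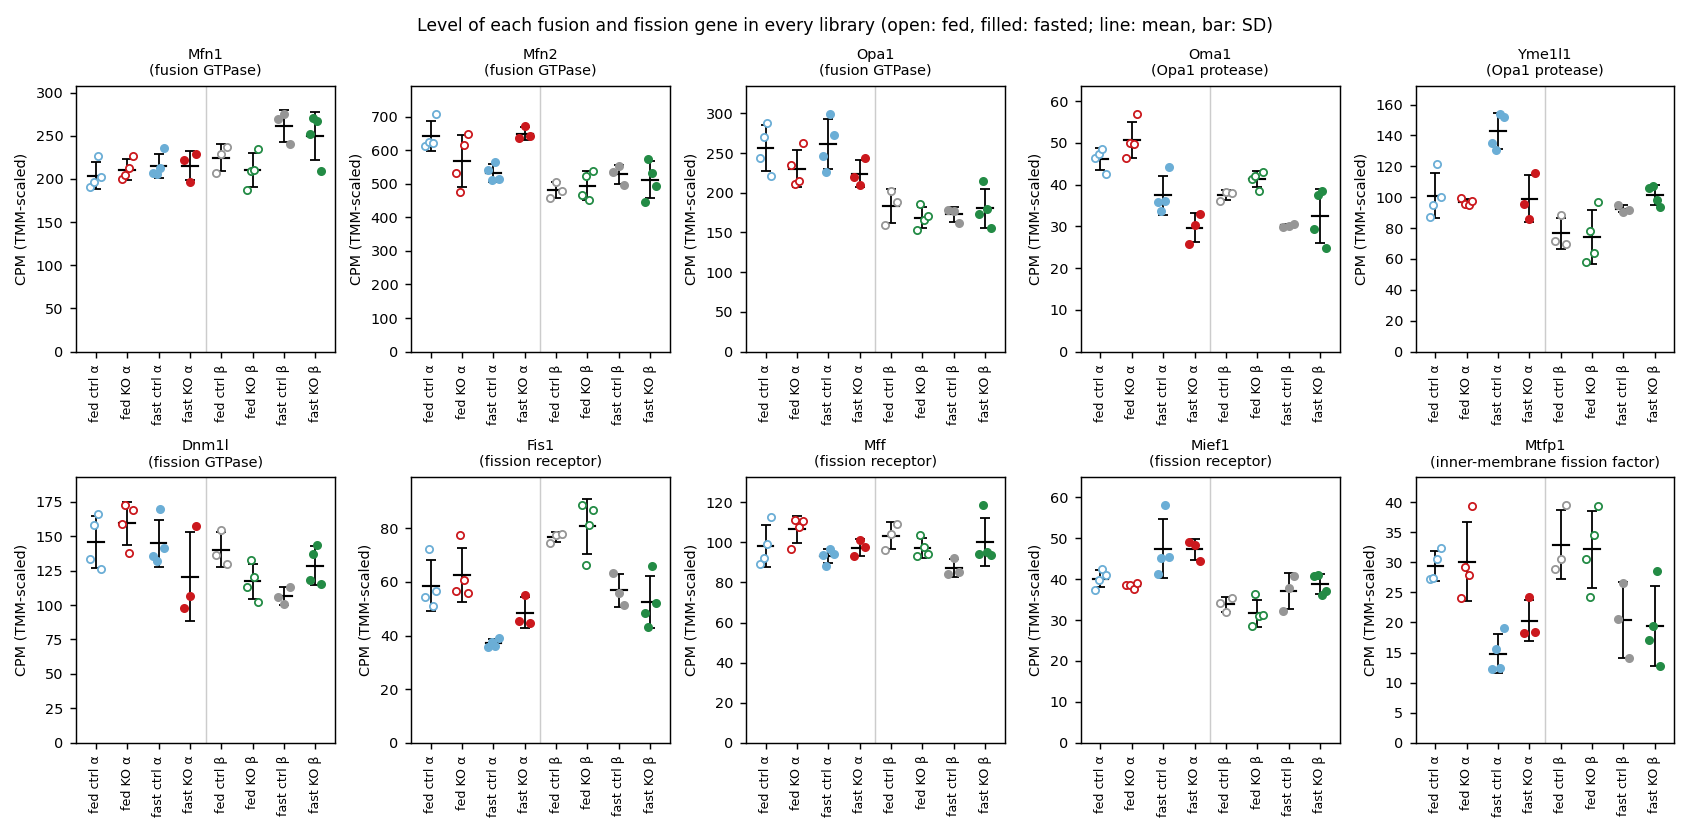
CPM of each member in every library of the 8 groups (open points fed, filled points fasted, α and β the 2 lines), with mean (line) and SD (bar); every vertical axis starts at 0. The fasted points of Mtfp1 and Fis1 have lower means than the fed points in both lines, while fasted Yme1l1 is high in p110α controls (143.0 CPM) and not in M-p110αKO (98.9 CPM).

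Fasting was the condition with the most member calls. In p110α controls, where 30.1% of the 12433 genes tested passed, 5 of 10 members did: Mtfp1, Fis1, Oma1 and Mfn2 fell and Yme1l1 rose. In M-p110αKO, where 21.5% of genes passed, 2 did, Oma1 and Mtfp1, both lower. In p110β controls (26.9% of 12249 genes) 3 fell, Dnm1l, Fis1 and Mtfp1. In M-p110βKO (37.9%) 5 passed, with Fis1, Mtfp1 and Oma1 lower and Yme1l1 and Mief1 higher. With 10 members, these shares do not set the genes apart from the background. The median log2 fold change of the members was −0.05, −0.08, −0.15 and 0.07 in that order, against 0.004, −0.004, −0.02 and −0.02 over all genes tested. Fed and fasted libraries did not overlap for 4, 3, 7 and 2 members, while the same held for 30.5%, 28.1%, 41.5% and 34.1% of all genes. The 2 fasting comparisons within a line share no libraries, but each line's knockout comparisons reuse the same libraries.

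**Figure D3:**
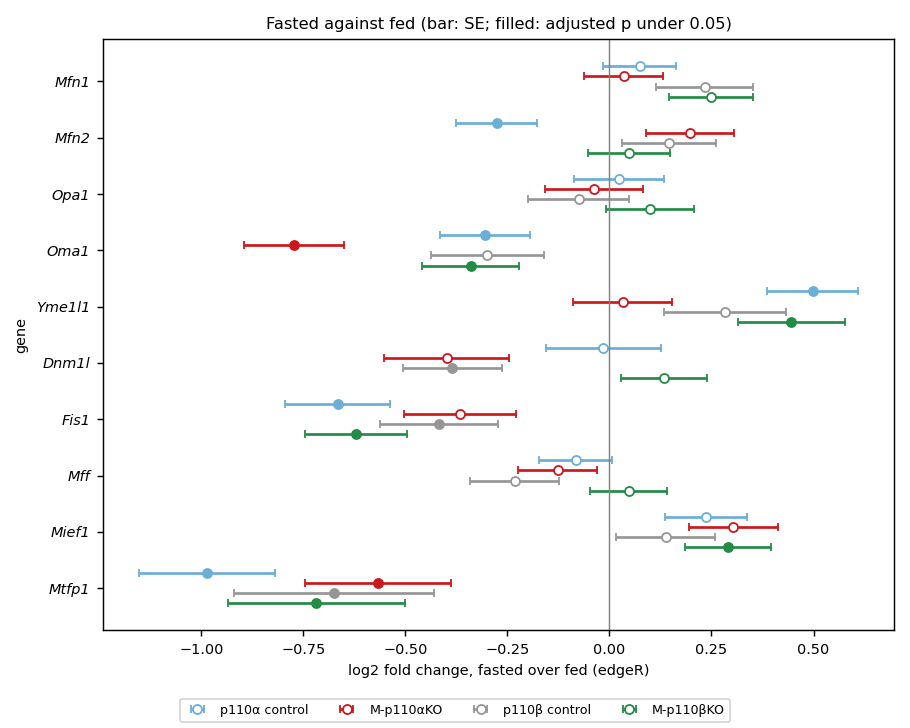
log2 fold change of fasted over fed for each member in the 4 genotype groups (points, bars the SE), filled where the adjusted p was under 0.05. Mtfp1 is below 0 and filled in all 4 groups, between −0.99 and −0.57, and Yme1l1 is filled above 0 in p110α controls and M-p110βKO only.

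Mtfp1, the inner-membrane protein needed for division, was the only member called lower in all 4 fasting comparisons. Fis1 and Oma1 also had log2 fold changes below 0 in all 4, but did not pass in each. In p110α controls its levels were 27.3, 27.5, 30.5 and 32.4 CPM fed and 12.2, 15.6, 12.5 and 19.1 CPM fasted. The fasted libraries all lay below the fed ones, and the level fell by 0.99 ± 0.17 on the log2 scale (SE, adjusted p = 0.000287). In M-p110αKO the fed values were 24.0, 29.2, 27.9 and 39.4 CPM and the fasted values 18.3, 24.2 and 18.4 CPM. The 2 ranges touched, with 1 fasted library just above the lowest fed one, and the fall was 0.57 ± 0.18 (adjusted p = 0.0319). This call ended without replicate 8, 13 or 15 (adjusted p up to 0.11).

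In p110β controls Mtfp1 was at 28.8, 30.5 and 39.4 CPM fed and 20.6, 26.6 and 14.1 CPM fasted. The groups did not overlap, and the log2 fold change was −0.675 ± 0.25 (adjusted p = 0.0493). Without replicates 23 and 24 it was −1.22 (adjusted p = 0.0244), which then rests on 1 fasted control assumed to vary like the other groups. Leaving out any one of replicates 16, 17, 18, 19, 21, 22, 23, 25 or 26 took the adjusted p past the threshold, up to 0.187. In M-p110βKO the fed levels were 30.5, 24.2, 34.5 and 39.4 CPM and the fasted levels 17.1, 19.4, 28.5 and 12.8 CPM. Apart from 1 fasted library inside the fed range, the fasted values were lower, and Mtfp1 fell by 0.72 ± 0.22 (adjusted p = 0.0138), a call that ended without replicate 22 or 29 (adjusted p up to 0.0539).

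Fis1, an outer-membrane adaptor linked to fission, was called lower in 3 of the 4 comparisons. In p110α controls it stood at 54.5, 72.4, 51.0 and 56.6 CPM fed and at 35.6, 37.6, 36.1 and 39.1 CPM fasted. The fasted libraries clustered tightly below the fed ones, a fall of 0.67 ± 0.13 (adjusted p = 0.000847). In M-p110βKO it went from 88.5, 66.2, 81.3 and 86.9 CPM fed to 48.5, 43.1, 66.0 and 52.3 CPM fasted. The highest fasted library sat just under the lowest fed one, and the fall was 0.62 ± 0.13 (adjusted p = 0.000844). These 2 falls passed the test whichever single library was left out.

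In p110β controls Fis1 was at 74.6, 77.5 and 77.9 CPM fed and 63.3, 56.0 and 51.3 CPM fasted. The groups were separate and the fall was 0.42 ± 0.15 (adjusted p = 0.0395), lost without any one of replicates 16, 17, 18, 24 or 25 (adjusted p up to 0.127) and at −0.56 (adjusted p = 0.0837) without replicates 23 and 24. In M-p110αKO the values were 56.6, 77.4, 60.9 and 55.7 CPM fed and 45.6, 55.3 and 44.8 CPM fasted. These did not overlap either, but the log2 fold change of −0.37 ± 0.14 did not pass (adjusted p = 0.0669), though it did without replicate 2, 8 or 14 (adjusted p = 0.0443, 0.0465 and 0.0424).

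Mff did not pass in any fasting comparison, with log2 fold changes from −0.23 in p110β controls to 0.05 in M-p110βKO. Mief1, also called MiD51, holds Dnm1l at the outer membrane, and it was called once. In M-p110βKO it rose from 28.5, 36.3, 30.9 and 31.1 CPM fed to 40.8, 41.1, 36.1 and 37.2 CPM fasted. A single fed library overlapped the lowest fasted one, and the rise was 0.29 ± 0.11 (SE, adjusted p = 0.0366), lost without any one of replicates 19, 21, 22, 26 or 27 (adjusted p up to 0.107). In the other 3 groups its log2 fold change was 0.24 (adjusted p = 0.0862), 0.30 (adjusted p = 0.0551) and 0.14 (adjusted p = 0.423), in the order p110α controls, M-p110αKO and p110β controls. Mief1 passed in p110α controls without replicate 9 (adjusted p = 0.0464) and in M-p110αKO without replicate 11 (adjusted p = 0.0299).

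Dnm1l, the GTPase that constricts mitochondria, was called lower in p110β controls only. Its levels there were 136.3, 154.4 and 129.8 CPM fed and 105.9, 100.6 and 113.0 CPM fasted. The groups were separate, and it fell by 0.385 ± 0.12 (adjusted p = 0.0246). Without replicate 17, 23 or 24 the call ended (adjusted p up to 0.107), and without both 23 and 24 the log2 fold change was −0.30 (adjusted p = 0.288). In M-p110αKO the log2 fold change of similar size, −0.40 ± 0.15, did not pass (adjusted p = 0.0732), while the values were −0.02 in p110α controls and 0.13 in M-p110βKO. In the fasted M-p110αKO group 1 of the 3 libraries, replicate 15 at 157.5 CPM, was well above the others at 97.8 and 106.4 CPM. Without it Dnm1l passed in M-p110αKO (−0.655, adjusted p = 0.00553).

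Oma1, the stress-activated protease that cuts Opa1, was called lower with fasting in 3 groups, and fell most in M-p110αKO. The fed M-p110αKO libraries held 46.5, 50.0, 49.7 and 56.9 CPM and the fasted ones 25.9, 30.3 and 32.8 CPM. There was a wide gap between the groups, and the fall was 0.77 ± 0.12 (adjusted p = 0.000296), past the threshold whichever single library was left out. In p110α controls the values were 46.3, 47.3, 48.4 and 42.4 CPM fed and 35.9, 33.6, 36.1 and 44.1 CPM fasted. Replicate 12, the highest fasted control, overlapped the fed range, and the fall of 0.30 ± 0.11 (adjusted p = 0.0435) was lost without any one of replicates 1, 2, 3, 7, 9, 10, 11 or 14 (adjusted p up to 0.13).

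In the p110β line Oma1 went in M-p110βKO from 41.4, 42.1, 38.6 and 43.1 CPM fed to 29.4, 37.5, 38.4 and 24.7 CPM fasted. The groups were barely separate, and the fall of 0.34 ± 0.12 (adjusted p = 0.031) was lost without any one of replicates 19, 20, 22, 26 or 29 (adjusted p up to 0.131). In p110β controls the libraries were at 36.0, 38.3 and 38.1 CPM fed and 29.9, 30.0 and 30.7 CPM fasted. They were separate too, and the log2 fold change of −0.30 ± 0.14 did not pass (adjusted p = 0.117).

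Yme1l1, the ATP-dependent inner-membrane protease that cuts Opa1 at a different site, rose with fasting in 2 groups. In p110α controls it was at 87.5, 94.9, 121.4 and 100.3 CPM fed and 135.0, 130.9, 153.8 and 152.2 CPM fasted. All fasted controls were above the fed ones, a rise of 0.50 ± 0.11 (adjusted p = 0.00278), past the threshold whichever single library was left out. In M-p110βKO it was at 58.2, 78.0, 63.7 and 97.1 CPM fed and 105.8, 107.4, 98.3 and 93.4 CPM fasted. A high fed library, replicate 22, overlapped the fasted range, and the rise was 0.45 ± 0.13 (adjusted p = 0.0113).

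In M-p110αKO Yme1l1 was at 99.6, 95.4, 95.3 and 97.7 CPM fed and 95.4, 85.7 and 115.7 CPM fasted. The fasted libraries lay on both sides of the fed ones, with a log2 fold change of 0.03 ± 0.12 (95% interval −0.21 to 0.27, adjusted p = 0.877). In p110β controls the change from 71.6, 88.3 and 70.0 CPM to 94.9, 90.4 and 91.9 CPM gave 0.28 ± 0.15 (adjusted p = 0.172) with no overlap between groups. The fasting effect in controls did not pass a test of the difference between lines for any member, where 1.56% of 12760 genes passed. At an unadjusted p under 0.05, 1 member did (Mfn2), against 1100 genes higher and 1111 lower. DESeq2 and limma-voom also called 0.

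Of the fusion GTPases, Mfn2 alone was called with fasting, and in p110α controls alone. It was at 614.2, 626.1, 621.5 and 708.1 CPM fed and 541.2, 511.2, 565.3 and 513.6 CPM fasted. The groups were separate and it fell by 0.28 ± 0.10 (adjusted p = 0.0427), lost without any one of replicates 1, 2, 3, 4, 9, 10, 11, 12 or 14 (adjusted p up to 0.122). In M-p110αKO the values were 532.1, 476.9, 615.1 and 650.0 CPM fed and 636.6, 672.3 and 641.8 CPM fasted. Here the fasted libraries were at the top of a wide fed range, and the log2 fold change was 0.20 ± 0.11 (adjusted p = 0.199).

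Mfn1 and Opa1 passed in no fasting comparison. For Mfn1 the log2 fold changes were 0.07, 0.04, 0.23 and 0.25 in p110α controls, M-p110αKO, p110β controls and M-p110βKO (lowest adjusted p = 0.0618), and in M-p110βKO Mfn1 passed without replicate 22, 25 or 29 (adjusted p = 0.0408, 0.0417 and 0.0149) and in DESeq2 (adjusted p = 0.0382). For Opa1 they lay between −0.08 and 0.10 (lowest adjusted p = 0.49). Opa1 differed in level by line, with group means of 224.1 to 260.9 CPM in the p110α line and 168.5 to 183.2 CPM in the p110β line. Mfn2 group means were likewise higher in the p110α line, at 532.8 to 650.3 CPM against 481.1 to 528.3 CPM. Both are descriptions that were not tested. The ratio of Mfn2 to Mfn1 reads within a library averaged 3.16 ± 0.315 in fed p110α controls and 2.48 ± 0.216 in fasted ones (SD, n = 4 each), and 2.69 ± 0.257 (n = 4) and 3.04 ± 0.341 (n = 3) in fed and fasted M-p110αKO. In the 4 p110β groups the mean ratio was 2.02 to 2.36.

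Markers of fibres and of other cells moved with fasting too, and their part in the member results was not tested. In p110α controls 4 of 8 fibre markers fell (Acta1, Ckm, Des and Myh7), with the list at 105000 to 135000 CPM fed and 104000 to 116000 CPM fasted. There 2 of 4 macrophage markers tested rose (list at 9.06 to 14.1 CPM fed and 15.7 to 37.5 CPM fasted), as did 2 of 4 endothelial (223 to 276 CPM and 248 to 315 CPM), 2 of 5 fibroblast (200 to 382 CPM and 372 to 456 CPM) and 1 of 4 adipocyte markers (0.633 to 3.99 CPM and 1.38 to 15.6 CPM). In M-p110αKO 1 of 3 Schwann cell markers fell (40.8 to 53.7 CPM fed, 16.7 to 34.9 CPM fasted), as did 1 of 4 red blood cell markers tested (13.6 to 43.2 CPM and 7.36 to 16.4 CPM), and no fibre marker passed.

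In M-p110βKO all 5 fibroblast markers fell (360.0 to 524 CPM fed, 148 to 218 CPM fasted), as did 3 of 3 macrophage markers tested (11.4 to 21.0 CPM and 6.26 to 8.04 CPM) and 2 of 4 endothelial markers (381 to 433 CPM and 219 to 329 CPM). Of its 8 fibre markers 2 rose and 2 fell (105000 to 116000 CPM and 99900 to 116000 CPM), of 2 satellite cell markers 1 rose and 1 fell (3.53 to 4.97 CPM and 2.06 to 4.88 CPM), and 1 of 3 Schwann cell markers rose (29.9 to 33.8 CPM and 23.2 to 69.7 CPM). In p110β controls both adipocyte markers tested rose, from a list sum of 0.12 to 1.2 CPM to 1.58 CPM in 1 library and 93.4 CPM in the other 2. Of this list, 2 markers were at 0 in all fed p110β controls, and no other list had such a marker. There 2 fibre markers rose and 1 fell (94800 to 110000 CPM fed, 95000 to 105000 CPM fasted), 2 of 5 fibroblast markers fell (341 to 418 CPM and 295 to 303 CPM) and 1 of 2 satellite cell markers fell (3.62 to 7.08 CPM and 2.0 to 3.44 CPM).

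Loss of p110α was tested against controls in each nutritional state. In the fasted state, where 6.52% of genes passed, Yme1l1 alone was called among the 10 members and was lower in M-p110αKO. The fasted controls held 135.0, 130.9, 153.8 and 152.2 CPM and the fasted knockouts 95.4, 85.7 and 115.7 CPM. Each knockout library was below each control, and the log2 fold change was −0.52 ± 0.12 (95% interval −0.76 to −0.29, adjusted p = 0.0181). The call ended without replicate 13 or 14 (adjusted p up to 0.0985). With counts corrected for GC content and exon length the difference was −0.26 ± 0.08 and did not pass (adjusted p = 0.107). The same correction moved Mff, which passed in neither fit, from 0.07 to 0.38 ± 0.11 (adjusted p = 0.0779). Mitochondrially encoded genes took 8.28% to 10.5% of reads in the fasted controls and 6.99% to 9.0% in the fasted knockouts; whether this bears on Yme1l1 was not tested. Of the 8 fibre markers 1 (Des) was called higher in the fasted knockouts, 3 were higher at an unadjusted p under 0.05 and 5 had groups that did not overlap, with a median of 0.34. Their sum was 104000 to 116000 CPM in the fasted controls and 100000 to 105000 CPM in the fasted knockouts, and no marker of the other 7 lists passed. The part of these markers was not tested either.

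In the same comparison 4 of 10 members had groups that did not overlap, against 20.8% of all genes: Yme1l1, Oma1, Mfn2 and Fis1. Oma1 was at 35.9, 33.6, 36.1 and 44.1 CPM in fasted controls and 25.9, 30.3 and 32.8 CPM in fasted M-p110αKO, a log2 fold change of −0.33 ± 0.12 that did not pass (adjusted p = 0.109). Mfn2 was at 0.295 ± 0.11 (adjusted p = 0.102) and Fis1 at 0.395 ± 0.14 (adjusted p = 0.0926). For Mtfp1, whose ranges overlapped, the value was 0.45 ± 0.18 (adjusted p = 0.142). At an unadjusted p under 0.05, 3 members were higher and 2 lower, against 1372 higher and 1459 lower of 12433 genes. Dnm1l passed only without replicate 15 (−0.50, adjusted p = 0.0496). The members' median was 0.006 against 0.003 over all genes.

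In the fed state no member passed for p110α (0 of 10, with 0 also at an unadjusted p under 0.05, and 0 by DESeq2 and by limma-voom), where 0.611% of genes did. At the unadjusted cut, 643 genes were higher and 812 lower. The 10 log2 fold changes of the members lay between −0.18 (Mfn2, 95% interval −0.37 to 0.02) and 0.14 (Oma1, −0.07 to 0.35). No member had groups that did not overlap, against 6.64% of all genes. Averaged over fed and fasted, Yme1l1 was called (−0.29 ± 0.08, adjusted p = 0.0476), where 5.49% of genes passed. That call ended when any one of replicates 2 to 14 was left out, with an adjusted p of at most 0.13, and with correction for GC content and exon length (−0.14, adjusted p = 0.183).

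Whether fasting acted differently in M-p110αKO and controls was tested by the interaction, in which 0.483% of genes passed and 0 members did. At an unadjusted p under 0.05 there were 3: Mfn2 at 0.47 ± 0.15 (SE, adjusted p = 0.145), Oma1 at −0.47 ± 0.16 (adjusted p = 0.188) and Yme1l1 at −0.47 ± 0.17 (SE, adjusted p = 0.191). Over all 12433 genes, 925 were higher and 934 lower at that cut. DESeq2 called Mfn2 (adjusted p = 0.0477) and limma-voom called 0. Mfn2 was lower after fasting in controls and higher on average in M-p110αKO, and the fitted difference missed the threshold in the main test.

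**Figure D4:**
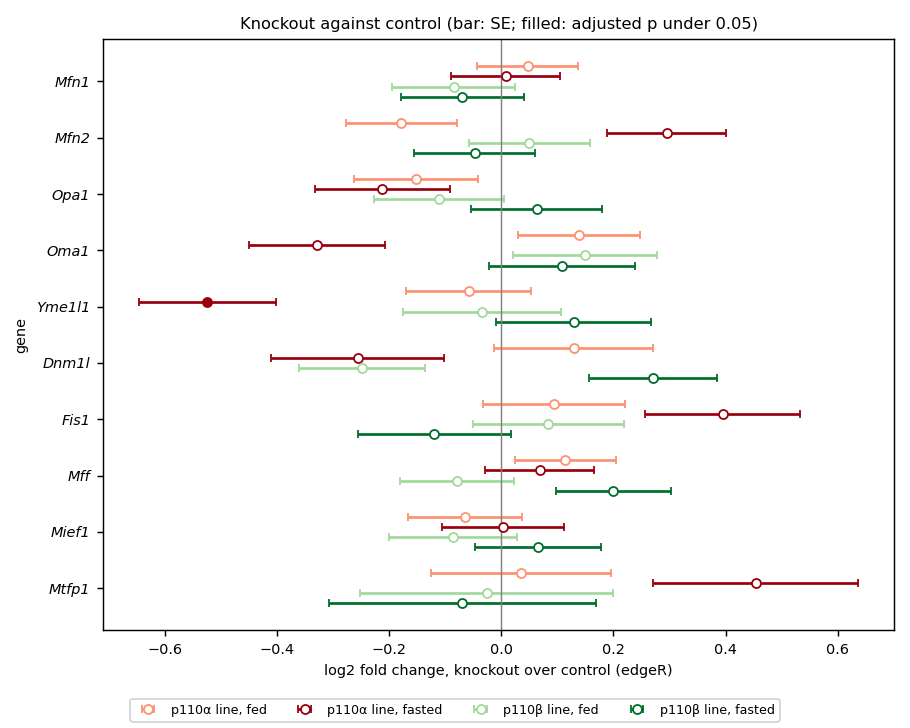
log2 fold change of knockout over control for each member in the 2 lines, fed and fasted (points, bars the SE), filled where the adjusted p was under 0.05. The one filled point is Yme1l1 in the fasted p110α line, at −0.52.

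Loss of p110β was followed by no member call. Fed, 0 of 10 passed (0% of 12249 genes did), with 1 at an unadjusted p under 0.05, Dnm1l at −0.25 ± 0.11 (adjusted p = 0.544). Fasted, 0 passed (0.89% of genes), again with 1 at an unadjusted p under 0.05, Dnm1l at 0.27 ± 0.11 (adjusted p = 0.309). Over all 12249 genes, 517 were higher and 543 lower at that cut fed, and 754 and 865 fasted. Groups did not overlap for 1 member fed (Oma1, 9.8% of genes) and 2 fasted (Mff and Dnm1l, 10.2% of genes). In the fasted comparison both adipocyte markers tested and Col1a1 among 5 fibroblast markers were lower in M-p110βKO. Without replicates 23 and 24 the fasted comparison again called 0 members. Averaged over states 0 passed (0.335% of genes), with 0 at an unadjusted p under 0.05, against 616 genes higher and 686 lower.

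The interaction of p110β loss and fasting also gave 0 calls (0.106% of genes). At an unadjusted p under 0.05, 753 genes were higher and 810 lower. There Dnm1l was at 0.52 ± 0.16 (adjusted p = 0.222), the single member at an unadjusted p under 0.05. Its 4 fed M-p110βKO libraries were at 113.3, 132.9, 120.1 and 102.4 CPM and the fasted ones at 118.3, 137.0, 143.8 and 115.3 CPM. These overlapped, unlike the fed and fasted controls. DESeq2 and limma-voom called 0 members in each of these p110β comparisons.

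The knockout effects of the 2 lines were compared in a fit of all 29 libraries. In the fasted state, where 4.88% of 12760 genes passed, the effect on Yme1l1 differed, at −0.66 ± 0.19 for p110α minus p110β (95% interval −1.04 to −0.29, adjusted p = 0.0414). Its fasted p110β libraries were at 94.9, 90.4 and 91.9 CPM in controls and 105.8, 107.4, 98.3 and 93.4 CPM in M-p110βKO, which gave 0.13 ± 0.14 on the log2 scale (adjusted p = 0.749). The difference between lines did not pass without any one of replicates 11, 12, 13, 14, 16, 23, 24, 25, 26 or 27 (adjusted p up to 0.143). With correction for GC content and exon length it was −0.29 and did not pass (adjusted p = 0.387). Without replicates 23 and 24, which leaves a single fasted p110β control, it stayed at −0.66 but did not pass. Dnm1l passed without replicate 15 (−0.77, adjusted p = 0.0124) and Fis1 without replicate 28 (0.64, adjusted p = 0.0442). In the fed state the difference between lines passed for 0 members (0.133% of genes), and for 0 by DESeq2 and limma-voom. At an unadjusted p under 0.05 there was 1 (Dnm1l at 0.39 ± 0.19), against 693 genes higher and 702 lower.

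GC content and exon length moved several fasting values as well. The called members span 38.0% GC (Yme1l1, which rose) to 54.7% GC (Mtfp1, which fell) in their longest transcripts. After correction by splines on both properties, Mtfp1 (−0.75, adjusted p = 0.00235), Fis1 (−0.44, adjusted p = 0.00554) and Yme1l1 (0.30, adjusted p = 0.00801) still passed in p110α controls, while Oma1 (−0.25, adjusted p = 0.0866) and Mfn2 (−0.24, adjusted p = 0.0565) did not and Mff did (−0.30, adjusted p = 0.0381). In M-p110αKO Oma1 (−0.66, adjusted p = 0.000737) and Mtfp1 (−0.51, adjusted p = 0.0478) passed, joined by Dnm1l (−0.37, adjusted p = 0.0416). In M-p110βKO Fis1 (−0.39, adjusted p = 0.00644) passed, and Yme1l1 (0.22, adjusted p = 0.173), Mtfp1 (−0.48, adjusted p = 0.0685), Oma1 (−0.26, adjusted p = 0.0939) and Mief1 (0.25, adjusted p = 0.0594) did not. In p110β controls Dnm1l (−0.34, adjusted p = 0.0283) passed, with Fis1 (−0.31, adjusted p = 0.0588) and Mtfp1 (−0.57, adjusted p = 0.0724) outside the threshold. After correction 28.0%, 20.6%, 34.9% and 26.3% of all genes passed in these groups, in the order given. The direction was kept in all 15 called fasting values.

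**Figure D5:**
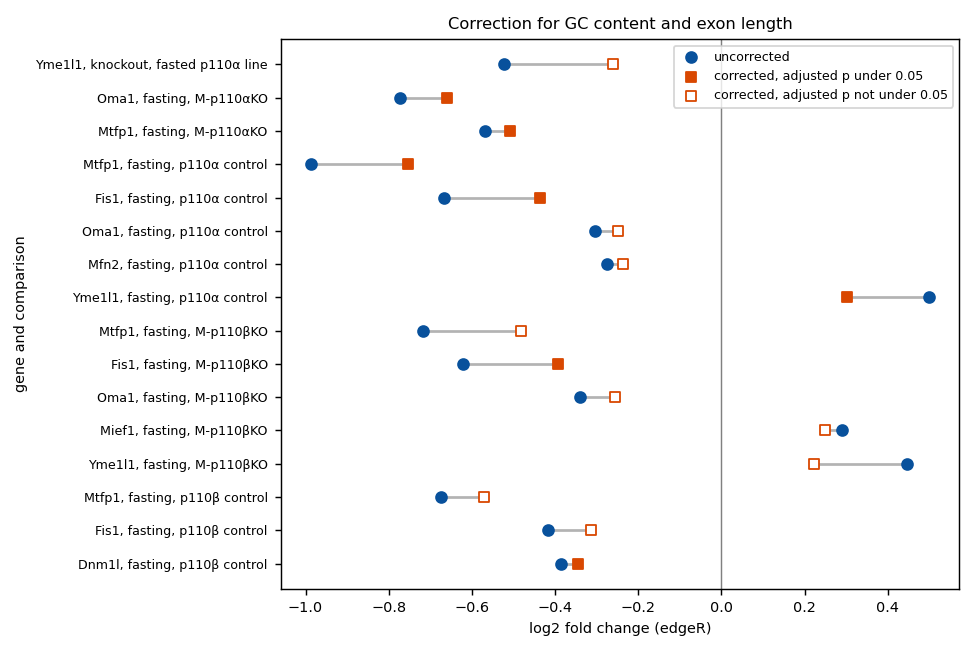
log2 fold change of each called value in the fasting and the fasted p110α knockout comparisons, before (circles) and after (squares) correction for GC content and exon length; filled squares passed at an adjusted p under 0.05. Every square lies nearer to 0 than its circle, and Yme1l1 in the fasted knockout comparison moves from −0.52 to −0.26. Values not called before correction are not drawn, and some of them moved away from 0.

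Other genes of mitochondrial shape were read from a list of 33, of which 31 were tested. With fasting in p110α controls, where 30.1% of all genes passed, 1 rose and 9 fell, led by Opa3 (−0.72 ± 0.13, adjusted p = 0.0004), a mitochondrial membrane protein tied to optic atrophy, and Samm50 (−0.65 ± 0.12, adjusted p = 0.000566), the core of the outer-membrane sorting complex. Gdap1, a fission factor best known from peripheral nerve, fell by 1.79 ± 0.35 (adjusted p = 0.00109), and Phb, a prohibitin of the inner-membrane scaffold, was at −0.565 ± 0.12 (adjusted p = 0.0015). In M-p110αKO (21.5% of all genes) 0 rose and 6 fell, led by Opa3 (−0.69 ± 0.14), Apool (−0.72 ± 0.15) and Gdap1 (−1.81 ± 0.42). Apool and 2410015M20Rik (−0.54 ± 0.17), the fourth, belong to the MICOS complex that shapes cristae.

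In p110β controls (26.9% of all genes) 2 of the 31 rose and 3 fell. Gdap1 fell by 2.19 ± 0.21, Opa3 by 0.65 ± 0.13 and the MICOS gene Minos1 by 0.60 ± 0.12, and Afg3l2, a matrix-facing protease, rose by 0.44 ± 0.12. In M-p110βKO (37.9% of all genes) 5 rose and 8 fell, led by Gdap1 (−1.95 ± 0.19), Opa3 (−0.66 ± 0.11), Slc25a46 (0.62 ± 0.12), an outer-membrane partner of the fusion machinery, and Afg3l2 (0.52 ± 0.10). Opa3 and Gdap1 were thus lower in all 4 fasting comparisons. The list's medians were −0.24, −0.13, −0.125 and −0.10 in the order used above, against 0.004, −0.004, −0.02 and −0.02 over all genes.

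In fasted M-p110αKO against controls 3 of the 31 passed, where 6.52% of all genes did, and the list's median was 0.04 against 0.003 over all genes. Spg7, a matrix protease subunit, was higher by 0.33 ± 0.09 (adjusted p = 0.0329) and Parl, a rhomboid protease of the inner membrane, by 0.445 ± 0.13 (adjusted p = 0.0483), while Apool was lower (−0.59 ± 0.15, adjusted p = 0.0282). Averaged over states Mief2, the partner receptor of Mief1, was higher by 0.31 ± 0.08 (adjusted p = 0.0303). The fasted knockout effect differed between lines for Apool (−0.82 ± 0.21, adjusted p = 0.024). In the fed p110α comparison, in the 3 p110β knockout comparisons, in both interactions and in the other differences between lines, 0 of the 31 passed the edgeR test, and between 0 and 6 had an unadjusted p under 0.05. The 6 were in the difference between lines of the fasting effect in controls. There 1100 of 12760 genes were higher and 1111 lower at that cut. Values of these listed genes are from the main fit only. How they change without single libraries, without replicates 23 and 24 or with the GC and length correction is not given.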

How the data were processed

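Polyadenylated RNA libraries (NEBNext mRNA kit) of 29 muscles were sequenced. The authors aligned reads with STAR to GRCm38 and counted them per gene with featureCounts of the Subread package, and the deposited values are raw read counts with 1 column per library. The sources used here do not give versions, annotation release or strand setting. Without a strand setting, reads of a member and of an overlapping gene cannot be told apart, and such overlaps covered at most 4.7% of a member's exon bases (Dnm1l).

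Counts were matched by Ensembl gene to GENCODE M21 symbols (47310 of 48023 genes). Libraries of the same group differed beyond sampling noise in all 39 pairs, so each counted once. The study states that distinct samples were measured. Each p-value sets a difference between groups against the spread between libraries, pooled over the groups of a fit and partly shared across genes. Each line was fitted with 1 coefficient per group in edgeR 4.0.16 (R 4.3.3): TMM factors, filterByExpr (minimum count 10, minimum total 15), the quasi-likelihood F test and Benjamini-Hochberg adjustment across every tested gene (threshold 0.05). Differences between lines came from a fit of all 29 libraries. Every adjusted p is from this test unless another tool is named, and the SE is the log2 fold change over the root of F. CPM in the text used TMM factors over all 29 libraries. The design has no batch term, since the labels give no batch. Simulated counts were run through the fit of the p110α line and the fit of all 29 libraries, each for its fed knockout contrast only. The p110β fit and the fasting contrasts were not simulated, and no outcome of these runs is given here.

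Alternatives were DESeq2 1.42.0, limma-voom (limma 3.58.1), other scaling factors and filters, fits without the most abundant genes, other sets of samples, offsets from splines on GC content and exon length (5 degrees of freedom each) and leaving out each library. A fit without replicates 23 and 24 was added after seeing the data. The members, the list of other mitochondrial genes and the markers were chosen with earlier results of these data known. All 10 members are named, with up to 4 listed genes of lowest adjusted p per comparison and the 5 genes nearest to each of the 2 members of widest range.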

Additional observations from a re-analysis of the deposited data

Results flagged for a closer look

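Mfn2 in replicate 4, a fed p110α control, was at 708.1 CPM, against 614.2 to 626.1 CPM in the other 3 libraries of its group. It was the high library of the group from which the fasting fall of Mfn2 was measured. Mff in replicate 27, a fasted M-p110βKO, was at 118.4 CPM, against 93.7 to 95.4 CPM in the other 3. Both stood farther from their group than Dixon's 95% limit allows. In all, 50 sets of a member in a group of 4 were examined, and chance alone puts about 1 in 20 past that limit.

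The fasted knockout effect on Yme1l1 differed between lines by a test of the difference itself (−0.663 for p110α minus p110β, edgeR adjusted p = 0.0414). Line, genetic background and floxed allele cannot be told apart here. Without replicates 23 and 24, which leaves a single fasted p110β control, the estimate was again −0.66 but did not pass.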

How the results depend on the processing

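Under the alternatives 4130 member values were recomputed, of which 4004 kept their direction or stayed uncalled, 101 lost the threshold, 25 gained it and 0 called values changed direction. Only values called in the main fit could lose the threshold, and these were a small part of the 4130. The 101 losses are therefore not to be read as a share of 4130. Among values called in neither fit, 198 changed sign. Group mean CPM moved by at most 3.24% under other scalings, and 157 of 160 such levels by less than 1 SD.

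With correction for GC content and exon length, member calls went to 0 in the fasted p110α knockout comparison (from 1), to 0 averaged over states (from 1), to 0 in the fasted difference between lines (from 1), to 1 with fasting in p110β controls (from 3) and to 1 in M-p110βKO (from 5). The shares of all genes called with this correction were 2.86%, 3.98%, 1.6%, 26.3% and 34.9% in that order. With no filter on low counts there were 3 with fasting in p110α controls, 4 in M-p110αKO and 3 in M-p110βKO. Of all genes, 14.4%, 10.9% and 18.1% were then called, against 30.1%, 21.5% and 37.9% in the main fit. With only the groups compared in the fit there were 2 in the fasted p110α knockout comparison (Yme1l1 and Fis1, 6.49% of genes). With fasting in M-p110αKO there was then 1 (16.8% of genes). Upper-quartile factors gave 5 with fasting in p110β controls (28.0% of genes) and 0 averaged over states for p110α (5.17%). Removing mitochondrially encoded and the 20 most abundant genes also gave 0 averaged over states for p110α (5.4%). DESeq2 gave 1 in the p110α interaction (1.91% of genes, against 0.483% in the main fit). Without replicates 23 and 24, an alternative chosen after seeing the data, there was 1 with fasting in p110β controls and 0 in the fasted difference between lines. The cause of these changes was not tested.

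Leaving out 1 library gave 0 to 2 calls in the fasted p110α knockout comparison, 0 to 1 averaged over states, 3 to 5 with fasting in p110α controls, 1 to 3 in M-p110αKO, 0 to 3 in p110β controls, 3 to 6 in M-p110βKO, 0 to 2 in the fasted difference between lines, and 0 in every other comparison. No paired analysis was possible because the replicate numbers 1 to 29 in the labels are unique and groups share none.

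Over all genes, calls in the fasted p110α knockout comparison went from 811 to 356 with the GC and length correction, and those in the fasted difference between lines from 623 to 204 with it and to 34 without replicates 23 and 24. Upper-quartile factors changed the split of calls in the fasted p110α knockout comparison from 375 higher and 436 lower to 458 higher and 330 lower, and with fasting in p110β controls from 1780 and 1517 to 1453 and 1976. Without a filter the fed p110β knockout comparison had 224 calls, with DESeq2 30, and in the main fit 0. Groups of 3 or 4 libraries limit the precision, most for Mtfp1, with 81 to 443 reads per library.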
